A study of Mus musculus with 24 samples.

Results

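The epithelium of the upper small intestine (USI) was compared between mice of 24 months and mice of 4 months. The comparison used the 5 libraries labelled as USI epithelium at these ages, 2 at 24 months (A and B) and 3 at 4 months (A, B and C), out of 24 RNA-seq libraries of the series. The other libraries came from the USI at 12 months and from the lower small intestine (LSI) and the colon (COL) at the same ages. Each mouse carried the Lgr5-EGFP-IRES-CreERT2 allele, in which the promoter of the stem cell gene Lgr5 drives a green fluorescent protein and an inducible Cre recombinase, and the labels give no treatment. RNA was taken from epithelial cells that were pooled, per the study's methods, and were not separated by this reporter. The number of mice behind each RNA sample is not given in the sources used here. For its sorted methylation samples the study pooled fewer mice at 24 months than at 4 months. The p-values therefore reflect the variation among these libraries rather than among single mice, and part of it may be technical. The study measured DNA methylation at CpG sites in the same tissue, and expression was examined for differences that accompany age. The 5 libraries held 35490209 to 38234708 counts.

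The lining of the small intestine is renewed from stem cells at the base of the crypts. Their progeny divide, become absorptive enterocytes or secretory cells, and move up the villus, where enterocytes carry a brush border of digestive enzymes and take up sugars, peptides and fat. Paneth cells stay in the crypt and secrete antimicrobial peptides, and intraepithelial lymphocytes sit between the epithelial cells. Markers of epithelium were high in every library: Epcam, an adhesion protein of epithelial cells, had 1287 to 1360 CPM at 4 months and 1385 and 1329 CPM at 24 months. CPM is the count of a gene relative to the total of its library, after TMM scaling. Of the genes of smooth muscle, Acta2, Myh11 and Des stayed under 0.5 CPM in all 5 libraries, while Tagln had 3.55, 2.52 and 4.19 CPM at 4 months and 3.64 and 4.6 CPM at 24 months.

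Library C at 4 months stood apart from libraries A and B of the same age. The 21 genes of a brush border digestion list summed to 4120 CPM in A, 3530 CPM in B and 23900 CPM in C, against 17500 and 12000 CPM at 24 months. Markers of T cells and intraepithelial lymphocytes summed to 32.3, 24.1 and 444 CPM at 4 months and to 318 and 268 CPM at 24 months. Markers of intestinal stem cells showed the opposite order, with 7480, 8060 and 4130 CPM at 4 months and 4080 and 5180 CPM at 24 months. Libraries A and B at 4 months therefore held less signal of villus enterocytes and lymphocytes than each of the other USI libraries, and library C resembled the 24-month and 12-month libraries in these lists. In an epithelium measured in bulk, fewer cells of a type and less RNA per cell cannot be told apart. Mitochondrial genes took 10.6% and 10.4% of the counts in A and B, 14.9% in C and 15.4% and 14.2% at 24 months. Genes of the Y chromosome had 5749 counts in 4-month B and 6067 counts in 24-month B, and 8 counts or fewer in the other 3 libraries. Xist, an RNA of the inactive X chromosome of females, had 1.498 CPM in 4-month B and 1.282 CPM in 24-month B. It had 1004.892 and 779.008 CPM in 4-month A and C and 683.903 CPM in 24-month A. By these genes both B libraries were male and the other 3 female, so that sex was not balanced between the ages. The 12-month USI libraries held 4 Y-linked counts or fewer.

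**Figure D1:**
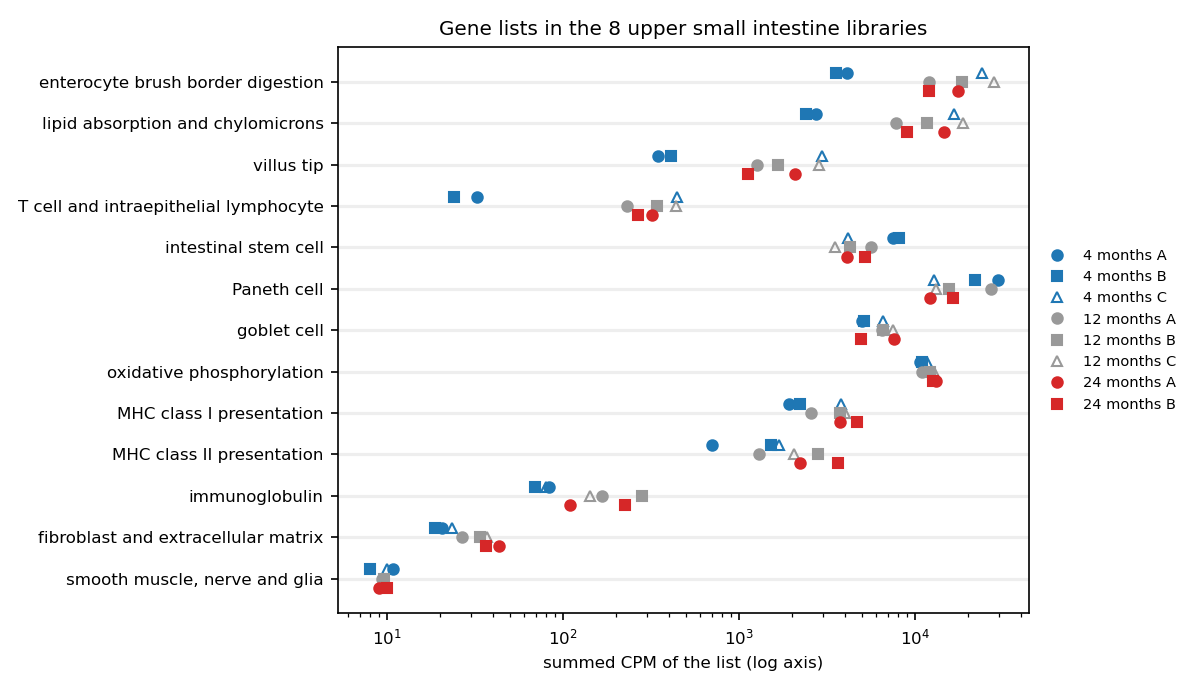
Summed CPM of 13 gene lists (log axis) in the 8 USI libraries, with age shown by colour and library letter by symbol. Libraries A and B at 4 months lie lowest for the brush border, lipid, villus tip and T cell lists, while library C at 4 months lies among or above the 12-month and 24-month libraries.

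Of 17491 genes tested, 23 rose at 24 months (0.131% of the genes tested) and 23 fell (0.131%), at a Benjamini-Hochberg adjusted p under 0.05 in edgeR's quasi-likelihood test over all 24 libraries. In total 0.263% of genes passed. All 46 genes had no overlap between the 24-month and the 4-month libraries, while 9.36% of all tested genes lay higher in both 24-month libraries than in every 4-month library and 13% lay lower. At an unadjusted p under 0.05, 4.63% of all genes were higher and 7.86% lower. The fold changes of the 46 genes ran from 1.41-fold upward. They were above 2-fold for 15 of the genes that rose and for 17 of those that fell.

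These calls borrowed their estimate of the spread from the other sections. With the 8 USI libraries alone, 1 of the 46 genes passed, Rps4y2, and without 4-month library C 922 genes rose (5.28% of the genes tested) and 667 fell (3.82%), among them all 46. Fewer genes passed without either 24-month library: 4 rose and 10 fell without A, and 9 rose and 6 fell without B. Without 4-month A 14 rose and 45 fell, and without 4-month B 13 rose and 11 fell. Rps4y2, Ddr2 and Cstf2t were the only ones of the 46 that passed in all 5 of these fits, and 14 of the 46 passed in at least 4. With 4-month C as the single young USI library 2 rose and 10 fell, and 7 of the 46 were among them: Ddr2, Ly6e, Rps4y2, Cstf2t, Tceal8, Gspt2 and Slc2a10.

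The 12-month libraries were not compared here, though they entered the fit's estimate of the spread. Their mean lay between the means of 4 and 24 months for 43 of the 46 genes (93.5%), all but Pnp2, Casp4 and Tbc1d16. This held for 71.1% of the genes without overlap between 4 and 24 months and for 39.7% of all genes tested. A wide difference between 4 and 24 months leaves more room for a mean in between, so these shares do not show a steady change with age. Some of these means lay close to the 4-month level: Ppp1r14d had means of 62.9, 63.3 and 113 CPM at 4, 12 and 24 months. Ddr2, described with the genes that rose, had 2.21, 4.29 and 4.36 CPM at 12 months, above all 4-month and below both 24-month libraries. For Slc34a2 the 12-month libraries, with 9.45, 4.56 and 9.13 CPM, overlapped with those of 4 months.

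**Figure D2:**
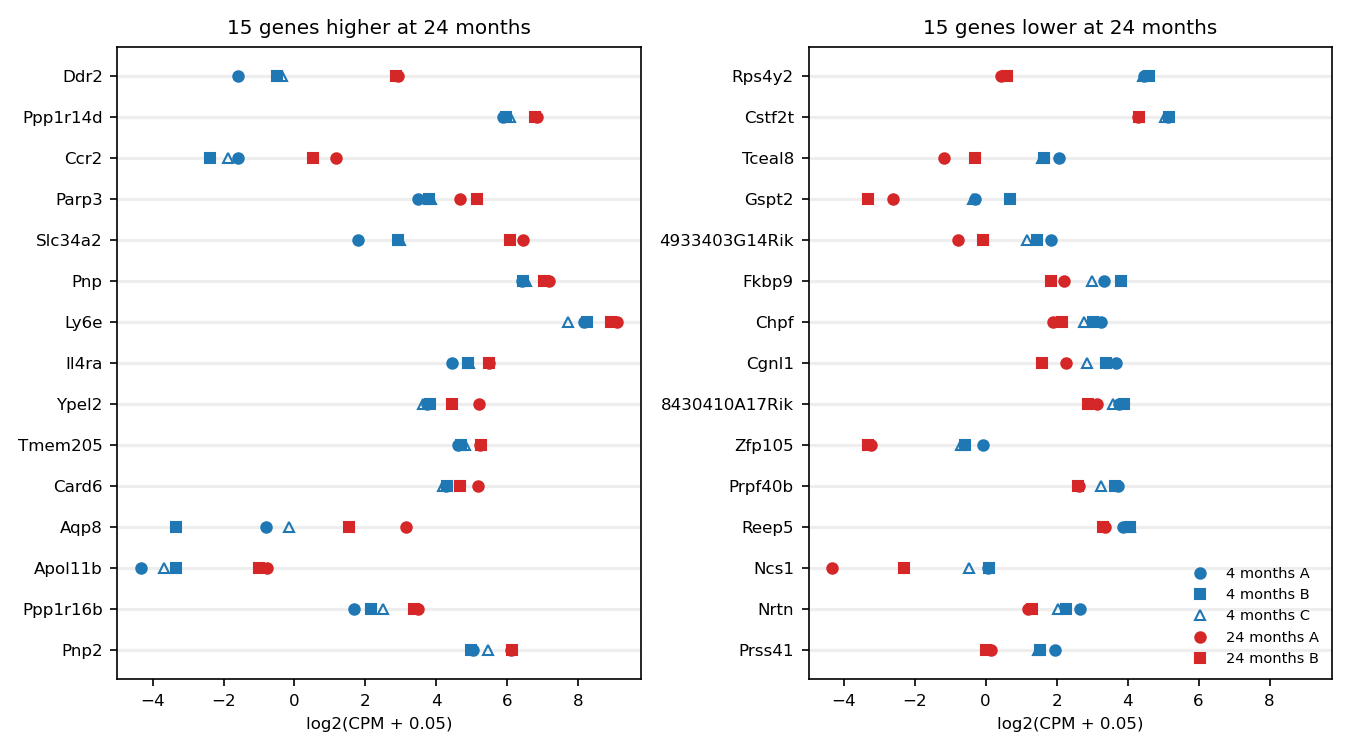
Expression in each of the 5 compared libraries, as log2(CPM + 0.05), of the 15 genes that rose (left) and the 15 that fell (right) with the smallest p, ordered by p from the top. Red symbols (24 months) lie to the right of all blue symbols (4 months) in the left panel and to the left of them in the right panel, in every row.

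Rps4y2 showed the clearest decrease. It is an autosomal copy of a gene for ribosomal protein S4 that lies on chromosome 6 (148303178 to 148304120 in mm9) with a single coding exon, despite the letter Y in its symbol. Its level was 21.9, 24.4 and 21.7 CPM at 4 months and 1.29 and 1.46 CPM at 24 months, a difference of -4.04 ± 0.245 on the log2 scale (SE, adjusted p = 7.92e-08). The 3 libraries of 12 months held 7.75, 6.52 and 8.39 CPM, between both other ages and without overlap. The X-linked gene Rps4x, which encodes the main form of the same protein, had 457, 453 and 322 CPM at 4 months and 377 and 391 CPM at 24 months, and its difference of -0.10 did not pass (adjusted p = 0.814). The longest stretch of identical bases between the coding sequences of Rps4y2 and Rps4x was 35 bases, and how reads that match both copies were counted is not given in the sources used here. Of the 46 tested genes on a list of ribosomal proteins, Rps4y2 was the only one that passed, and the median of the list was -0.15, beside -0.046 for all genes.

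A pair of other genes that fell are also copies of a gene elsewhere in the genome. Cstf2t, a single-exon relative of Cstf2, which acts in forming the 3′ ends of mRNAs, had 34.97, 36.1 and 33.4 CPM at 4 months and 19.6 and 20.01 CPM at 24 months (log2 difference -0.82 ± 0.0959, adjusted p = 0.000485). The values within each age lay close together. Gspt2, a relative of the translation termination factor gene Gspt1, had 0.758, 1.57 and 0.730 CPM at 4 months and 0.112 and 0.050 CPM at 24 months (-3.62 ± 0.514, adjusted p = 0.00434). The genes they derive from did not pass: Cstf2 had 93.0, 109 and 72.4 CPM at 4 months against 85.8 and 95.7 CPM at 24 months, and Gspt1 had 199, 224 and 167 CPM against 179 and 198 CPM. These 3 partner genes were chosen after their values were seen. Among the 23 genes that fell 4 had a single coding exon in every annotated transcript (17.4%), as did 3 of the 22 genes with a coding exon that rose (13.6%) and 7.7% of all tested genes with a coding exon. Without the immunoglobulin segments it was 1 of 18 genes that rose (5.56%).

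Other genes that fell include members of the secretory pathway and a gene of cell junctions. Fkbp9, a prolyl isomerase of the endoplasmic reticulum, had 9.999, 14.1 and 7.92 CPM at 4 months and 4.59 and 3.55 CPM at 24 months (-1.39 ± 0.207, adjusted p = 0.00502). Chpf, which takes part in building chondroitin chains, fell from 9.43, 8.15 and 6.74 CPM to 3.67 and 4.37 CPM. Cgnl1, encoding paracingulin of tight and adherens junctions, had 12.8, 10.4 and 7.14 CPM at 4 months and 4.76 and 2.97 CPM at 24 months (-1.39 ± 0.244, adjusted p = 0.0203), and it was the only one of 29 tested junction and adhesion genes to pass. Of the estimates of these 29 genes 18 were above 0, and their median was 0.06, beside -0.046 for all genes. For Cgnl1, Chpf and Fkbp9 the 4-month library C was the lowest of its age, though still above both 24-month libraries.

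Several genes that fell were near the limit of detection at 24 months, and 8 of the 23 had a mean of 1 CPM or less at that age. Tceal8, an X-linked gene of a family related to a transcription elongation factor, had 4.17, 3.09 and 2.95 CPM at 4 months and 0.392 and 0.754 CPM at 24 months (-2.55 ± 0.334, adjusted p = 0.00174). Zfp105, a zinc finger gene, had 0.900, 0.618 and 0.562 CPM against 0.056 and 0.050 CPM (-3.63 ± 0.641, adjusted p = 0.0224). Ncs1, a neuronal calcium sensor, had 0.995, 1.02 and 0.674 CPM at 4 months, and was at 0 and 0.151 CPM at 24 months. Klhl13, which encodes an adaptor of a ubiquitin ligase, had 0.663, 1.31 and 0.618 CPM at 4 months and was without a count in 24-month library B. The other genes that fell include Prpf40b, a splicing factor, Nrtn, a ligand of the GDNF family, Slc2a10, a sugar transporter, Snx33, a sorting nexin, Tbc1d16, a regulator of Rab proteins, the protease gene Prss41 and the zinc finger gene Prdm15, together with 4933403G14Rik, 8430410A17Rik, Reep5, Cmtm8, D0H4S114 and Ldoc1l. Their decreases ran from -0.50 for Prdm15 to -2.62 for Ldoc1l.

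Among the genes that rose, 3 carry solutes or bind matrix at the cell surface. Slc34a2, the sodium-phosphate cotransporter of the intestinal brush border, had 3.41, 7.47 and 7.87 CPM at 4 months and 86.7 and 66.9 CPM at 24 months (log2 difference 3.62 ± 0.592, adjusted p = 0.0116). Aqp8, a water channel, had 0.521, 0.048 and 0.843 CPM against 8.80 and 2.87 CPM (3.66 ± 0.677, adjusted p = 0.0272), and the 24-month libraries differed 3-fold. Ddr2, a receptor tyrosine kinase that binds fibrillar collagen, had 0.284, 0.666 and 0.730 CPM at 4 months and 7.51 and 7.27 CPM at 24 months (3.72 ± 0.411, adjusted p = 0.000283). Library C had the highest 4-month value of Slc34a2, below both 24-month libraries, and the highest sum of the brush border list among the 5 libraries. Whether the level of Slc34a2 follows that list was not tested. Of 23 tested genes of iron, vitamin and mineral uptake Slc34a2 was the only one that passed. Slc34a2 also stands on a list of 8 genes of LSI identity and Aqp8 on a list of 20 genes of colon identity. No other member of these lists passed, and their medians were 0.52 and 0.43 beside -0.046 for all genes. In the alternative fits the medians ran from -0.38 to 1.66 for LSI identity and from 0 to 0.76 for colon identity.

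Of 30 tested genes of chemokine and cytokine signalling 2 passed, both higher (0.131% of all genes), with a median of 0.53, between 0.18 and 0.78 in the alternative fits. Ccr2, the receptor that draws monocytes out of the blood, had 0.284, 0.143 and 0.225 CPM at 4 months and 2.21 and 1.38 CPM at 24 months (3.03 ± 0.471, adjusted p = 0.00811). Il4ra, a subunit of the receptor for interleukin-4 and interleukin-13, had 21.8, 29.7 and 30.5 CPM against 44.4 and 44.9 CPM (0.71 ± 0.123, adjusted p = 0.0187). Ly6e, an interferon-inducible membrane protein that is not on this list, had 288, 304 and 211 CPM against 545 and 482 CPM (0.94 ± 0.156, adjusted p = 0.0126). The lowest 4-month value of Ly6e was that of library C, the library with the most lymphocyte signal. Whether the level of Ly6e follows that signal was not tested. Casp4, an inflammatory caspase, had 17.6, 26.4 and 22.1 CPM at 4 months and 43 and 47.7 CPM at 24 months. Card6, a gene with a caspase recruitment domain, had 19.4, 19.5 and 18.0 CPM at 4 months and 36.3 and 25.6 CPM at 24 months.

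The remaining genes that rose include enzymes, inhibitors and regulators. Parp3, an ADP-ribosyltransferase of DNA strand-break repair, had 11.04, 13.9 and 14.3 CPM at 4 months and 25.4 and 35.5 CPM at 24 months (1.22 ± 0.194, adjusted p = 0.0103). It was the only one of 30 tested DNA repair genes to pass, while 26 of the 30 estimates were below 0, with a median of -0.22. Pnp, a purine nucleoside phosphorylase, had 84.6, 86.5 and 91.3 CPM against 144 and 130 CPM, and its neighbour and related gene Pnp2 had 32.6, 31.5 and 43.6 CPM against 68.9 and 69.7 CPM. Reads of Pnp and Pnp2 may be shared between them. Ppp1r14d and Ppp1r16b, which encode regulators of protein phosphatase 1, rose by 0.84 ± 0.125 and 1.30 ± 0.244. Bmf, a pro-apoptotic BH3-only gene, and Cast, which encodes the calpain inhibitor calpastatin, rose by 1.01 and 0.70, and Ypel2, Tmem205 and the non-coding gene 9130206I24Rik by 1.14, 0.55 and 2.05. Apol11b, of the apolipoprotein L family, rested on 3 counts in all at 4 months and 37 counts at 24 months. The ratio was 18.5 with a counting interval of 5.87 to 94.0 (exact binomial, 95%, counting error only). The mates of a read pair were counted separately, so that these counts are not independent and the interval is too narrow.

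The last 4 genes that rose are variable segments of immunoglobulins: Igkv19-93, Igkv5-39, Igkv6-13 and Ighv9-3. Their 4-month values stayed under 0.5 CPM, and their log2 differences ran from 2.90 for Ighv9-3 to 5.53 for Igkv6-13. The 2 libraries of 24 months were not alike for Igkv6-13, with 0.952 and 7.16 CPM. After these values were seen, all immunoglobulin genes were listed by symbol: 4 of 91 passed, all higher, against 0.131% of all genes, and their median was 1.49. The median was 0.40 without 24-month library B and 0.30 without the libraries with Y-linked counts, and each of the 4 segments passed in only 1 or 2 of the 5 fits that left out a library. They summed to 83.3, 69.2 and 79.8 CPM at 4 months, 110 and 226 CPM at 24 months and 142 to 282 CPM at 12 months. Igj, the joining chain of secreted antibodies, followed with 8.15, 8.13 and 9.55 CPM at 4 months and 14.9 and 33.8 CPM at 24 months, and did not pass (1.5 ± 0.399, adjusted p = 0.118). Of 17 tested markers of B and plasma cells, Igj among them, none passed in edgeR's quasi-likelihood test. At an unadjusted p under 0.05, 1 was higher and 1 lower (4.63% and 7.86% of all genes). DESeq2 and edgeR's likelihood ratio test each called 1 higher. Reads may be shared between related variable segments, so that their single values are uncertain.

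The upstream sequences of genes that fell and genes that rose differed in their content of CG dinucleotides, the sites at which the study measured methylation. In a window from 250 bases before to 50 bases after the annotated gene start, 18 of the 23 genes that fell had a CpG-rich sequence (78.3%), defined as an observed over expected CG ratio above 0.6 with a GC content above 50%. Of the 23 genes that rose 4 did (17.4%), and of all tested genes with a window 51.4%. The median ratio was 0.80 for the genes that fell, 0.30 for those that rose and 0.67 for all. Without the 4 immunoglobulin segments, 4 of 19 genes that rose were CpG-rich (21.1%). This measure was chosen after the gene names were seen and was not tested, and no methylation value was analysed here. The 250 bases before the start of 6 of these genes, read from mm9 on the strand of the gene, are given below with each CG in capitals. Cstf2t, Zfp105 and Cgnl1 fell, Slc34a2 and Ccr2 rose, and Il4ra is 1 of the 4 CpG-rich genes that rose. They lie at chr19:31157081-31157330 (plus strand), chr9:122831940-122832189 (plus), chr9:71619410-71619659 (minus), chr5:53429071-53429320 (plus), chr9:124016439-124016688 (plus) and chr7:132695535-132695784 (plus), in the same order.
Cstf2t: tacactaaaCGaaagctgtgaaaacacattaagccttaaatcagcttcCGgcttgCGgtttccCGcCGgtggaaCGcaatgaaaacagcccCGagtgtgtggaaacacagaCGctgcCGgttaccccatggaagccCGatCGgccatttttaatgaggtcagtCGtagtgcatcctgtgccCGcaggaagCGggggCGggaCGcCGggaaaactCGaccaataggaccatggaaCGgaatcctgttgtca
Zfp105: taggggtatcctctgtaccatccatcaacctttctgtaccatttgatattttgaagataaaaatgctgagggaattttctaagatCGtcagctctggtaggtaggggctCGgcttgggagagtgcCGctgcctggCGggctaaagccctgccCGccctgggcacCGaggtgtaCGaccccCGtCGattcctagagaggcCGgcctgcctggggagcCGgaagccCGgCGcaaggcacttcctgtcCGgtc
Cgnl1: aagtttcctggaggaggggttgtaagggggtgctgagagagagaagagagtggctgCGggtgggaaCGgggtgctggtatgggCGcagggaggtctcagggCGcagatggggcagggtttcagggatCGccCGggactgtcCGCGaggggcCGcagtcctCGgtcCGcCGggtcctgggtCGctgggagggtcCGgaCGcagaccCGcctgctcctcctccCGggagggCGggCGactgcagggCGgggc
Slc34a2: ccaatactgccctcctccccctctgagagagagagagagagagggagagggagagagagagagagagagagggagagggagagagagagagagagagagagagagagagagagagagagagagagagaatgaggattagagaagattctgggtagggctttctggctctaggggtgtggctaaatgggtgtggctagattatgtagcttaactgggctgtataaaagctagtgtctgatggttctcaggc
Ccr2: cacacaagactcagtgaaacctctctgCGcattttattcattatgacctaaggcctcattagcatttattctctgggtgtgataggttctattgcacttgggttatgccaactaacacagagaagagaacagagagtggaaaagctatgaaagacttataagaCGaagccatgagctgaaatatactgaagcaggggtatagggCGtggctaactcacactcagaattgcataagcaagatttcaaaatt
Il4ra: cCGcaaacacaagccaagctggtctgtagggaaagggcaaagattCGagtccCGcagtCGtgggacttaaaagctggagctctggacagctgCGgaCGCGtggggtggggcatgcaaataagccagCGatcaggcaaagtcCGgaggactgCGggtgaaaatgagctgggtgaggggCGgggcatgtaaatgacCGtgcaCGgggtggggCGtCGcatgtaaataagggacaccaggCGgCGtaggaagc
These sequences hold 19, 14 and 20 CG in Cstf2t, Zfp105 and Cgnl1, none and 3 in Slc34a2 and Ccr2, and 17 in Il4ra. The upstream sequence of Slc34a2 is instead filled over much of its length by repeated GA.

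Genes of connective tissue were higher at 24 months as a list, at low levels. The 22 tested markers of fibroblasts and extracellular matrix had a median log2 difference of 1.17, beside -0.046 for all genes. Of them 1 passed, Ddr2, and 14 lay higher in both 24-month libraries than in every 4-month library, which 9.36% of all genes did. Dcn, which encodes the matrix proteoglycan decorin, had 0.190, 0.475 and 0.281 CPM at 4 months and 6.16 and 2.87 CPM at 24 months (3.82 ± 0.886, adjusted p = 0.0742). Col1a2, a chain of collagen type I, had 0.095, 0.095 and 0.112 CPM against 0.616 and 0.452 CPM (adjusted p = 0.0905). The list summed to 18.7 to 23.4 CPM at 4 months, 43.2 and 36.4 CPM at 24 months, so that its share of the library stayed small at both ages. Its median was between 0.91 and 1.80 in the 20 alternative fits. Of 24 tested markers of macrophages and dendritic cells 1 passed, Ccr2, with a median of 0.48. Itgam, an integrin subunit of myeloid cells, had 18.4, 22.3 and 16.3 CPM at 4 months and 34.9 and 36.0 CPM at 24 months and did not pass (0.90 ± 0.273, adjusted p = 0.172). This list summed to 101, 107 and 180 CPM at 4 months and 186 and 181 CPM at 24 months, so that 4-month C lay near the older libraries. Without 24-month A the list had no gene that passed and a median of 0.26. Markers of smooth muscle, nerve and glia summed to 7.96 to 10.8 CPM at 4 months and 9.02 and 9.93 CPM at 24 months.

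Genes of oxidative phosphorylation, which encode subunits of the respiratory chain in the nuclear genome, were slightly higher. All 36 tested members had an estimate above 0, from 0.06 to 0.34 with a median of 0.22, and 32 of 36 lay higher in both 24-month libraries than in every 4-month library, as did 9.36% of all genes. None passed in edgeR's quasi-likelihood test, 16 were higher at an unadjusted p under 0.05 (4.63% of all genes were), DESeq2 called 1 and the likelihood ratio test none. The lowest p belonged to Ndufa9, a subunit of complex I, with 140, 148 and 143 CPM at 4 months and 175 and 184 CPM at 24 months (0.32, adjusted p = 0.172). The list's median was 0.14 to 0.30 in the alternative fits, and 4-month library C (11600 CPM in sum) lay near A and B (10700 and 11000 CPM), below the 24-month libraries (13100 and 12700 CPM). Genes of the mitochondrial genome gave another pattern, with 91900 and 91500 CPM in 4-month A and B, 144000 CPM in C and 148000 and 132000 CPM at 24 months.

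The 21 tested genes of cholesterol synthesis also had estimates above 0 in all cases, with a median of 0.25 (0.23 to 0.38 in the alternative fits). None passed in edgeR's quasi-likelihood test, in the likelihood ratio test or in DESeq2, and 10 were higher at an unadjusted p under 0.05 (4.63% of all genes). Nsdhl, an enzyme that demethylates sterols, had 46.1, 54.2 and 47.3 CPM at 4 months and 59.7 and 65.2 CPM at 24 months (adjusted p = 0.196).

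Antigen presentation genes were higher in both 24-month libraries for part of the lists. For MHC class I presentation the median of 18 genes was 0.73, all 18 estimates were above 0 and 8 genes lay higher without overlap (9.36% of all genes did). None passed in edgeR's quasi-likelihood test, 11 were higher at an unadjusted p under 0.05 (4.63% of all genes), and DESeq2 and the likelihood ratio test each called 1 higher. Without 4-month library C 9 of the 18 rose (5.28% of all genes) and the median was 1.12, and with C as the only young USI library the median was 0.24. Tap2, a subunit of the peptide transporter, had 11.9, 17.7 and 28.3 CPM at 4 months and 36.4 and 63.1 CPM at 24 months (1.37, adjusted p = 0.116). For MHC class II the median of 13 genes was 0.94, between 0.63 and 1.33 in the alternative fits, and 8 lay higher without overlap (9.36% of all genes). None passed in any of these 3 tests and 3 were higher at an unadjusted p under 0.05 (4.63% of all genes). H2-Aa, a class II chain, had 46.8, 127 and 222 CPM at 4 months and 294 and 520 CPM at 24 months. Library A at 4 months was lowest for Tap2 and H2-Aa and 24-month library B highest. For both genes the 4-month libraries differed by more than those of 24 months as a ratio, but by less in CPM. Of 39 interferon response genes 1 passed, Ly6e, and the median was 0.46. That median was 1.17 without 4-month library C and -0.09 with C as the only young USI library.

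Markers of absorptive cells and of lymphocytes depended on 4-month library C. None of 21 brush border genes passed in edgeR's quasi-likelihood test, in the likelihood ratio test or in DESeq2, with none at an unadjusted p under 0.05, and 12 of 21 rose without library C (5.28% of all genes did). In lipid absorption the numbers were 0 of 25 in the same 3 tests and at an unadjusted p under 0.05, and 16 of 25 without C. Of 29 T cell and intraepithelial lymphocyte markers none passed in edgeR's quasi-likelihood or likelihood ratio test. At an unadjusted p under 0.05, 2 were higher (4.63% of all genes), DESeq2 called 1, and 23 rose without C. Sis, the brush border sucrase-isomaltase, had 466 and 252 CPM in 4-month A and B, 3907 CPM in C and 2459 and 1724 CPM at 24 months. Cd8a, a T cell coreceptor, had 1.94, 0.880 and 32.0 CPM at 4 months and 26.2 and 16.7 CPM at 24 months. The 24-month values of both genes fell inside the range of the 4-month libraries.

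**Figure D3:**
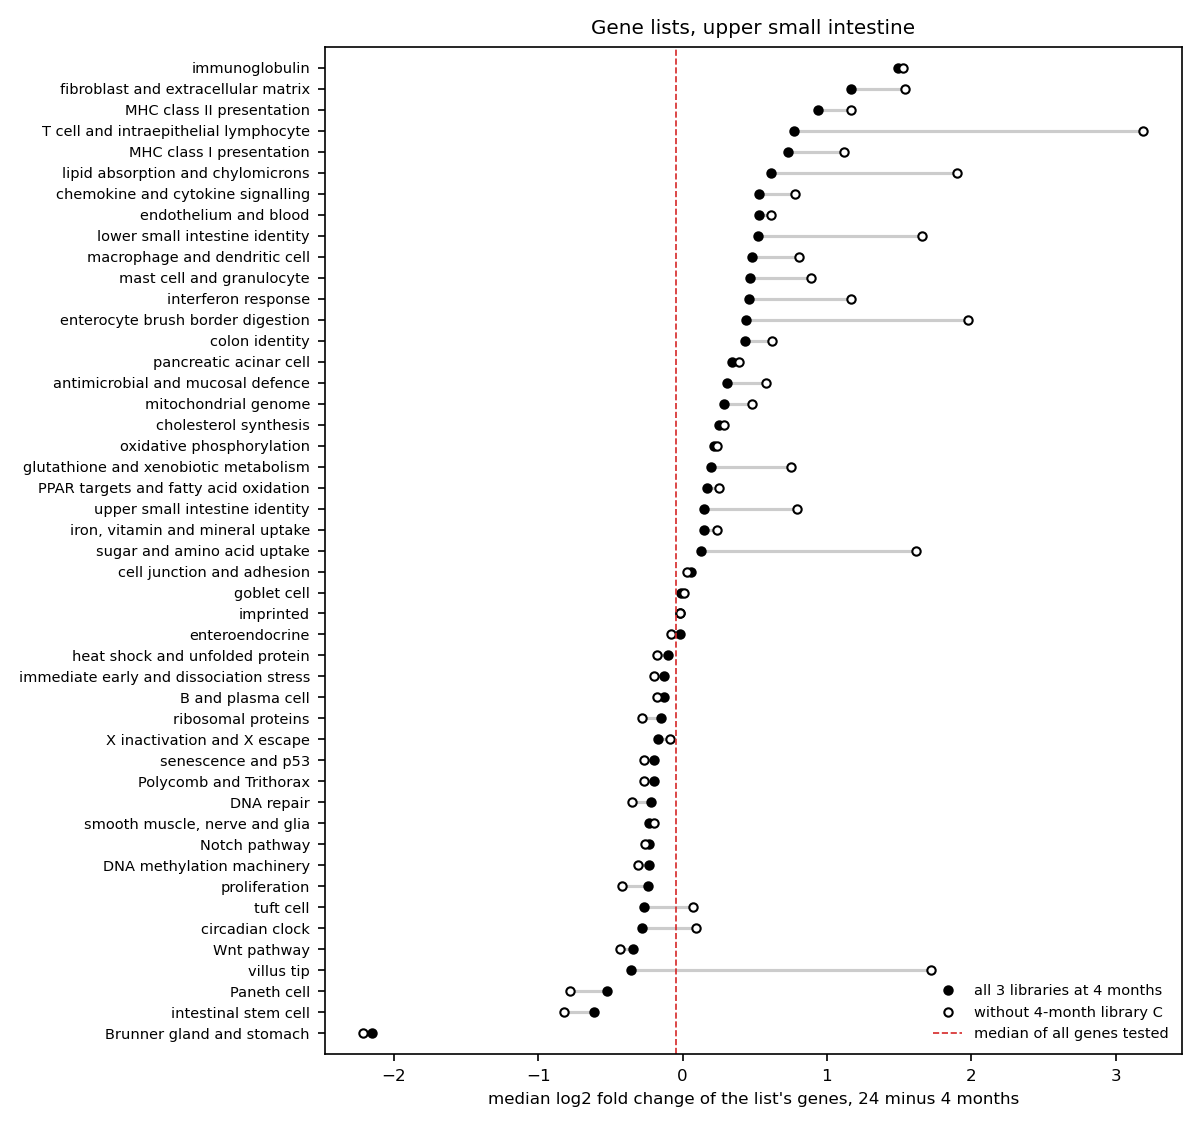
Median log2 fold change (24 minus 4 months) of the tested genes of each list, with all 3 young libraries (filled) and without 4-month library C (open); the dashed line marks the median of all genes, -0.046. The lists of absorptive cells, villus tip and T cells move furthest when library C is left out, while immunoglobulin, cholesterol synthesis and oxidative phosphorylation move by less than 0.1.

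Pgc, Muc6 and other genes of Brunner glands and stomach varied widely among the 4-month libraries. The 10 tested genes summed to 57.6, 3060 and 1460 CPM at 4 months and 195 and 425 CPM at 24 months. None passed in edgeR's quasi-likelihood test, and 3 were lower at an unadjusted p under 0.05 (7.86% of all genes were). DESeq2 and the likelihood ratio test each called 1 lower. All 10 estimates were below 0, with a median of -2.15, between -2.79 and -0.93 in the alternative fits. Pgc, which encodes the precursor of gastricsin, had 8.96, 143 and 68.2 CPM at 4 months and 8.80 and 6.71 CPM at 24 months (-3.24 ± 0.839, adjusted p = 0.118), and library A at 4 months lay close to the 24-month libraries.

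Stem cell and crypt lists lay lower at 24 months and moved with the same libraries. Of 18 stem cell markers none passed, 12 were lower at an unadjusted p under 0.05 (7.86% of all genes), DESeq2 called 2 and the likelihood ratio test 1 lower, and without library C 12 fell (3.82% of all genes). Below every 4-month library in both 24-month libraries lay 6 of the 18 (13% of all genes). Lgr5, the receptor that marks these stem cells, had 100.3, 68.4 and 44.7 CPM at 4 months and 28.5 and 35.1 CPM at 24 months (-1.16 ± 0.341, adjusted p = 0.158), and Cdk6, a cell cycle kinase, had 22.6, 21.3 and 13.1 CPM against 10.2 and 9.50 CPM (-0.95, adjusted p = 0.0973). Library C was the lowest of its age for both but above the 24-month libraries. Axin2, a feedback inhibitor and target of Wnt signalling, had 249, 208 and 137 CPM at 4 months and 123 and 136 CPM at 24 months (-0.61, adjusted p = 0.205). For Axin2 the 4-month library C lay close to the 24-month libraries. The Wnt list had a median of -0.34 over 29 genes, the Notch list -0.23 over 18 and the list of Polycomb and Trithorax genes -0.20 over 22. No member passed in edgeR's quasi-likelihood test, and 8, 6 and 4 of them were lower at an unadjusted p under 0.05 (7.86% of all genes were). DESeq2 called 1, 2 and 1 of them lower and the likelihood ratio test none, 1 and none. Notch1, the receptor, had 73.1, 67.6 and 47.2 CPM at 4 months and 38.6 and 39.9 CPM at 24 months (-0.67, adjusted p = 0.108). With library C as the only young USI library, the medians of the stem cell, Wnt and Polycomb lists were -0.01, -0.04 and -0.03, and that of the Notch list was -0.17.

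The genes that write, read and erase DNA methylation did not pass in the main fit. Of 19 tested members none passed in edgeR's quasi-likelihood test, the likelihood ratio test or DESeq2, 5 were lower at an unadjusted p under 0.05 (7.86% of all genes), and the median was -0.23. It was -0.31 without 4-month library C, -0.08 with a term for the brush border level and -0.03 with C as the only young USI library. Without 4-month library C 3 of the 19 fell (3.82% of all genes did): Uhrf2, Cxxc1 and Dnmt3a. Dnmt1, the maintenance methyltransferase, had 208, 218 and 134 CPM at 4 months and 143 and 144 CPM at 24 months (-0.38 ± 0.216, adjusted p = 0.481). Dnmt3a and Dnmt3b, which methylate new sites, had differences of -0.27 and -0.54, and Uhrf1, which brings Dnmt1 to replicated DNA, had 120, 143 and 87.7 CPM against 73.3 and 83.3 CPM (-0.58, adjusted p = 0.351). Of the dioxygenases that oxidise methylcytosine, Tet1 had 4.12, 2.38 and 2.53 CPM against 1.79 and 1.86 CPM (-0.72 ± 0.386), while Tet2 and Tet3 differed by 0.06 and 0.07. The difference of the glycosylase gene Tdg was 0.02 and that of Mbd4 -0.37, and among the readers Mbd1, Mbd2 and Mbd3 ran from -0.17 to 0.01. Dnmt1 of 4-month library C was again below libraries A and B. Uhrf2, Hells, Cxxc1, Zbtb33, Gadd45a and Gadd45b of the same list ran from -0.42 to 0.22.

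The circadian clock list split the libraries in another way. Of 23 tested genes none passed in edgeR's quasi-likelihood test, the likelihood ratio test or DESeq2, and 1 was higher and 2 lower at an unadjusted p under 0.05, near the shares of all genes (4.63% and 7.86%). Tef, a clock output transcription factor, had 12.3, 8.20 and 93.2 CPM at 4 months, 90.2, 87.3 and 133 CPM at 12 months and 20.001 and 13.1 CPM at 24 months. Per3 and Per2, repressors of the clock, had 28.4 and 38.6 CPM in 4-month C and 10.8 CPM or less in 4-month A and B and at 24 months. Arntl, the activator that these repressors oppose, had 57.0, 59.9 and 21.6 CPM at 4 months, 16.2 to 23.2 CPM at 12 months and 62.5 and 68.8 CPM at 24 months. For these genes 4-month A and B resembled the 24-month libraries, and 4-month C resembled the 12-month libraries, whereas for brush border and lymphocyte genes 4-month C resembled both older groups. The hour at which tissue was taken is not given in the sources used here. Npas2, a partner of Arntl, had 28.0, 25.7 and 17.1 CPM at 4 months and 46.1 and 33.2 CPM at 24 months (0.75 ± 0.252, adjusted p = 0.219), and Wee1, a kinase of the cell cycle under clock control, had 34.9, 35.5 and 27.2 CPM against 24.0 and 20.5 CPM (-0.55, adjusted p = 0.172).

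**Figure D4:**
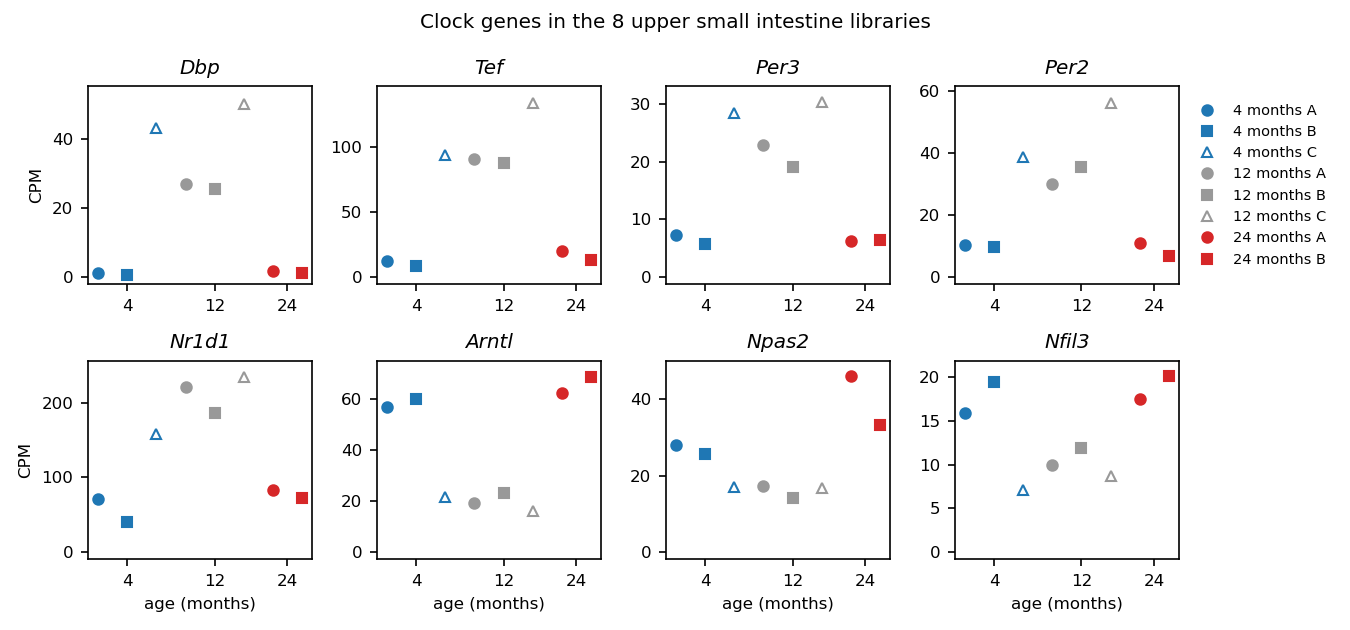
CPM of 8 clock genes in each USI library, by age. Libraries A and B at 4 months lie with the 24-month libraries, and library C at 4 months lies with the 12-month libraries, for Dbp, Tef, Per3, Per2, Arntl and Nfil3.

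Whether the age difference in the USI differed from that of the other sections was tested as the difference of both age effects. Against the LSI, no gene passed in edgeR's quasi-likelihood test (0% of genes), 558 had an unadjusted p under 0.05 and the likelihood ratio test called 4. Against the colon 2 genes passed (0.0114%), Rps4y2 and Gata4. Gata4, a transcription factor of the proximal intestine, had 223, 245 and 238 CPM in the USI at 4 months and 230 and 218 CPM at 24 months. In the colon it had 0.904, 0.865 and 1.19 CPM at 4 months and 3.74 and 3.197 CPM at 24 months, so that the difference of the age effects was -1.89 ± 0.290 (adjusted p = 0.0322) and came with a level in the colon far below that of the USI. Rps4y2 fell in each section. In the LSI it fell from 22.3 to 25.8 CPM to 1.051 and 1.86 CPM, and in the colon from 6.06 to 8.33 CPM to no count. The colon decrease was at least 172-fold when 3 counts over the 24-month colon group are taken as the floor. A higher floor would lower this bound, and the mates of a read pair entered as separate counts. The fitted difference between the USI and the colon for Rps4y2, 6.99 on the log2 scale (adjusted p = 0.00116), depends on the prior count since the colon was at 0.

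Of the 46 genes called in the USI, 5 passed in the same direction in the LSI, where 0.08% of genes passed: Rps4y2, Ddr2, Parp3, Card6 and 9130206I24Rik. In the colon, where 0.149% passed, 6 of the 46 did so: Rps4y2, Ddr2, Cstf2t, Ccr2, Zfp105 and Ldoc1l. These comparisons share no library with that of the USI, but they came from the same fit, with a shared estimate of the spread of each gene. A gene with a low estimate passes more easily in every section. Whether libraries with the same letter came from the same mice is not given in the sources used here, but Y-linked counts were high (3440 to 7301) in library B of each section at 4 and at 24 months and 22 or fewer in all other libraries. The sections can therefore not be taken as independent of each other. Slc34a2 was among the genes that did not pass elsewhere, and its test against the LSI did not pass either (adjusted p = 0.980).

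**Figure D5:**
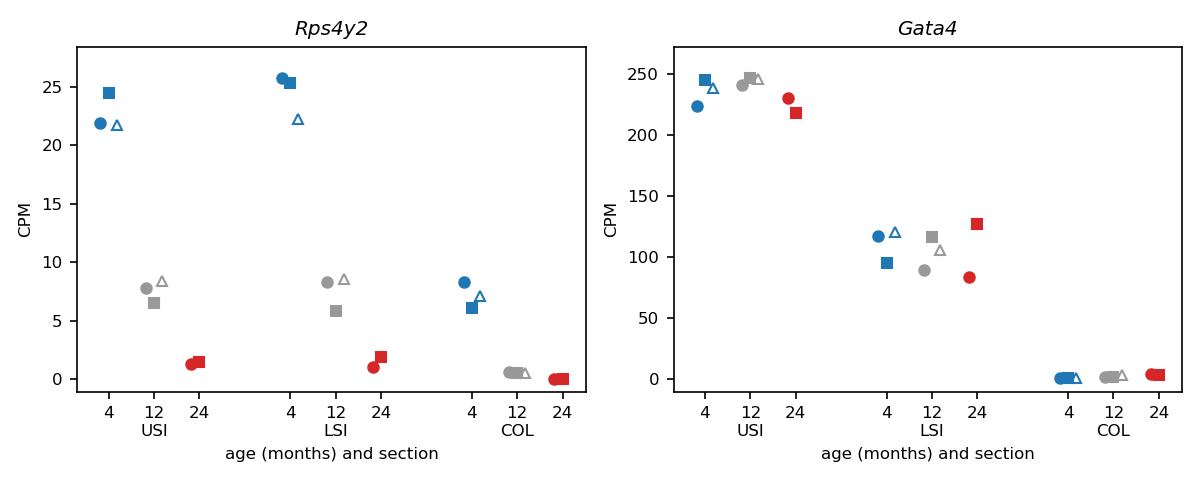
CPM of Rps4y2 and Gata4 in all 24 libraries by section and age. Rps4y2 falls with each older age in all 3 sections, and Gata4 is high in the USI at every age and below 4 CPM in the colon.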

How the data were processed

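RNA-seq counts of 24 libraries of mouse intestinal epithelium were used, of which 5 (USI at 24 and 4 months) make up the comparison. The authors deposited raw counts per gene, made with featureCounts 2.0.0 on the Ensembl annotation of mm9 per the file headers. Strand was ignored, and the mates of a read pair entered as separate reads. The study's methods name trimmomatic, STAR and edgeR, whereas TopHat2, HTSeq and Cuffdiff appear in the submitters' processing notes, without versions. Reads of overlapping antisense genes cannot be told apart, and near-identical copies are uncertain.

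Counts were scaled with TMM factors (0.914 to 1.13), filtered with filterByExpr at its defaults and fitted by quasi-likelihood in edgeR (version 4.0.16, R version 4.3.3), with 1 coefficient for each of 9 groups of section and age over all 24 libraries (15 residual and 3.43 prior degrees of freedom). Tests were two-sided with Benjamini-Hochberg adjustment over all genes tested. Errors of log2 differences are approximate standard errors, the absolute log2 difference divided by the square root of the F statistic of its test. They were not taken from the coefficients of the fit. Of 1048 named members of 47 gene lists, 1040 were matched to a symbol. The median log2 difference was described for each list beside that of all genes, with no test of the list. Members and lists were chosen with earlier results of these data known.

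Any gene with an adjusted p under 0.05 could be named. The values of up to 15 genes in each direction were chosen by the smallest p among genes without overlap of libraries, and up to 4 members of a list by the smallest p, with all members of the lists of DNA methylation, clock and Y-linked genes, Lgr5, and up to 5 genes in each direction for a difference between sections. Epcam, Acta2, Myh11, Des, Sis, Cd8a, Muc6, Casp4, Klhl13, Igkv6-13, Rps4x, Cstf2 and Gspt1 were chosen after their values were seen. A member of the DNA methylation list is not reported here. Upstream sequences and coding exons were read from the mm9 genome and GENCODE annotation. The main fit of the USI comparison was tested on simulated data with known changes, while the alternatives and the tests between sections were not. Figures were drawn with matplotlib 3.10.9 in Python 3.11.15. Alternatives were DESeq2 1.42.0, the likelihood ratio test, RLE factors, other filters and thresholds, fewer libraries, a replicate block, and, chosen after seeing the data, 4-month library C as the single young USI library, a term for the brush border level, and the omission of each library in the tests between sections.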

Additional observations from a re-analysis of the deposited data

Results flagged for a closer look

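The age effect of Rps4y2 differed between the USI and the colon, by 6.99 on the log2 scale in the edgeR test of the difference (adjusted p = 0.00116). The adjusted p was 0.00199 to 0.00625 when each USI library was left out in turn. The fitted value depends on the prior count, because no read was counted in the colon at 24 months. With 3 counts over that group as the floor, the difference in the colon was -7.43 or lower on the log2 scale, against -4.04 in the USI. A higher floor would bring this bound nearer to the USI value, and the mates of a read pair entered as separate counts.

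The age effect of Gata4 differed between the same sections by -1.89 (adjusted p = 0.0322). Its level in the USI overlapped between ages and its level in the colon rose from about 1 CPM. The adjusted p was 0.0751 without 24-month USI library A, 0.192 without 24-month library B and 0.0758 without 4-month library B, and 0.0277 and 0.0140 without 4-month A and C.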

How the results depend on the processing

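The comparison at an adjusted p under 0.05 gave 23 genes higher and 23 lower, and every one of the 46 kept its direction in all alternatives that could be fitted. The counts of higher and lower genes were 89 and 153 with the likelihood ratio test, 104 and 182 with DESeq2, 1521 and 1312 without the 3 C libraries at 4 months, 61 and 66 with a term for the brush border level, 2 and 10 with 4-month C as the single young USI library, 2 and 1 without the libraries with Y-linked counts, and 0 and 1 with the 8 USI libraries alone and with the 5 compared libraries alone. Without a low-count filter 14 genes were lower. Thresholds of 0.1 and 0.01 gave 60 and 99, and 3 and 6, and an absolute log2 fold change over 1.5 as well gave 10 and 10. Leaving out each library in turn gave 4 to 922 genes higher and 6 to 667 lower, both largest without 4-month C. RLE factors, a CPM filter, a term for Y-linked expression and counts divided by 2 kept each count within 1.5 times. The cause of these differences was not tested. The fits with the likelihood ratio test, DESeq2 and the replicate block over 24 libraries called all 46 genes.

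The labels do not say what libraries with the same letter share. With a replicate block by letter the counts were 117 and 191 over all 24 libraries and 0 and 1 over the 8 USI libraries. The differences between A and B at 4 and at 24 months correlated with 0.27 across 13030 genes, and with 0.188 without Xist and Y-linked genes, and with only 2 shared letters the pairing could not be checked further.

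For the difference between the USI and the LSI, 0 genes passed and 4 with the likelihood ratio test, and 0 to 3 when each USI library was left out. For the USI and the colon 2 passed, 92 with the likelihood ratio test, and 1 to 252 when each USI library was left out, most of them without 4-month C. With 2 libraries at 24 months, the precision of each value rests on the number of libraries rather than on depth, except for genes under about 1 CPM.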
